A study of Mus musculus with 6 samples.

Results

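The guanylate-binding protein (Gbp) family was followed in bone marrow-derived macrophages (BMDMs) that lacked or carried MSR1, the macrophage scavenger receptor 1. Its 10 members here, Gbp2 to Gbp11, are 10 of the 52550 genes in the deposited count table. They were taken by gene symbol, and the family was selected on its raw counts in MSR1 KO against MSR1 WT, so its higher level in MSR1 KO is what chose it and is given as a description. Calls of members from the fit over all genes are counted below only beside the share of all tested genes called, and support nothing. The macrophages were grown from bone marrow of MSR1 KO mice and of WT mice, both of strain C57BL/6, for 7 days in 25 ng/ml M-CSF, a macrophage growth factor. Macrophages of both genotypes were then held for 48 h in a transwell system with bone marrow mesenchymal stem cells (BMSCs), so both groups share the co-culture and differ by genotype. Each genotype has 3 libraries. They are described as biological replicates, but whether each came from a separate mouse is not given in the sources used here, so a p-value measures the spread between these libraries. The genotype of the co-cultured BMSCs is not given in the labels.

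Gbp proteins are large GTPases of the dynamin superfamily. Interferon-gamma, and more weakly type I interferons, switch on their genes in macrophages through JAK kinases and the transcription factors these activate. The proteins assemble on the membranes of intracellular vacuoles and bacteria, break them or mark them for destruction, and bring lipopolysaccharide and DNA to the inflammasomes. In the mouse the genes lie in 2 clusters, with 4 of the members on chromosome 3 (Gbp5, Gbp7, Gbp3 and Gbp2, in order of position, all on the + strand) and 6 on chromosome 5 (Gbp8, Gbp9, Gbp4, Gbp10, Gbp6 and Gbp11, all on the - strand). All positions are those of the deposited table, which for the 10 members are the same as in GENCODE M21 on GRCm38.

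The guanine nucleotide is held by the P-loop, a short loop near the start of the GTPase domain. The coding bases around it are shown for 7 members because they show how far the members differ where reads must tell them apart. They come from GENCODE M21 transcripts, 60 bases each, 5′ to 3′, and the capitals mark the 8 codons of the P-loop.
Gbp2: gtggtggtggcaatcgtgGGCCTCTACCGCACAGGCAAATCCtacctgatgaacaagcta
Gbp5: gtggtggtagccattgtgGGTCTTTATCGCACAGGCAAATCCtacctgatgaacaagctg
Gbp7: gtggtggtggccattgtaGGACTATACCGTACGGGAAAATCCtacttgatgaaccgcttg
Gbp3: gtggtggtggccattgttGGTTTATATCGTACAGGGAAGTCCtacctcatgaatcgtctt
Gbp6: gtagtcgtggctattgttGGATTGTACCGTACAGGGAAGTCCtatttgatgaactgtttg
Gbp10: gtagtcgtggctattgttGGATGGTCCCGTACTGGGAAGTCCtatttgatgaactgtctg
Gbp4: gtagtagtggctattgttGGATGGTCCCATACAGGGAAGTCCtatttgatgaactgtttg
Gbp5 differed from Gbp2 at 7 of these bases, Gbp7 at 14 and Gbp3 at 16. The chromosome 5 members Gbp6, Gbp10 and Gbp4 differed from Gbp2 at 18, 20 and 21 bases. Gbp8 and Gbp11, which share 1 sequence in this stretch, and Gbp9 each differed from Gbp2 at 17.

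Gbp2 and Gbp5 carry a C-terminal cysteine to which a prenyl lipid is attached, which anchors the protein in membranes. Their last 33 coding bases, stop codon included, are shown with the cysteine codon in capitals.
Gbp2: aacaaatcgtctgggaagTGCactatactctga
Gbp5: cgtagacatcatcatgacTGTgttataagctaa
In both, the cysteine codon was the 4th codon from the end, not counting the stop codon. The chosen coding transcripts of the other 8 members had no cysteine codon at that place.

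Over the aligned coding sequence, the 15 pairs of chromosome 5 members were 90.0 to 98.4% identical, with a median of 90.9%. The 6 pairs of chromosome 3 members were 67.2 to 79.5% identical, with a median of 67.75%, and the 24 pairs between the clusters 65.8 to 76.4%, with a median of 72.05%. Gbp6 and Gbp10 were the most alike, with 1806 of 1836 aligned bases identical. In annotated exons, 29.0% of the exon bases of Gbp6 and 46.3% of those of Gbp10 also belonged to Gm43302, a gene on the same strand that spans both. Of the 100-base windows of the coding transcript, 82.9% for Gbp6 and 70.9% for Gbp10 had an exact copy in another gene, against at most 6.0% for the other 8 members. Counts of Gbp6, Gbp10 and Gm43302 are therefore uncertain, since how reads with several matches were counted is not given in the sources used here. Gbp4, Gbp8 and Gbp9 share an annotated first exon of 60 or 61 bases.

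**Figure D1:**
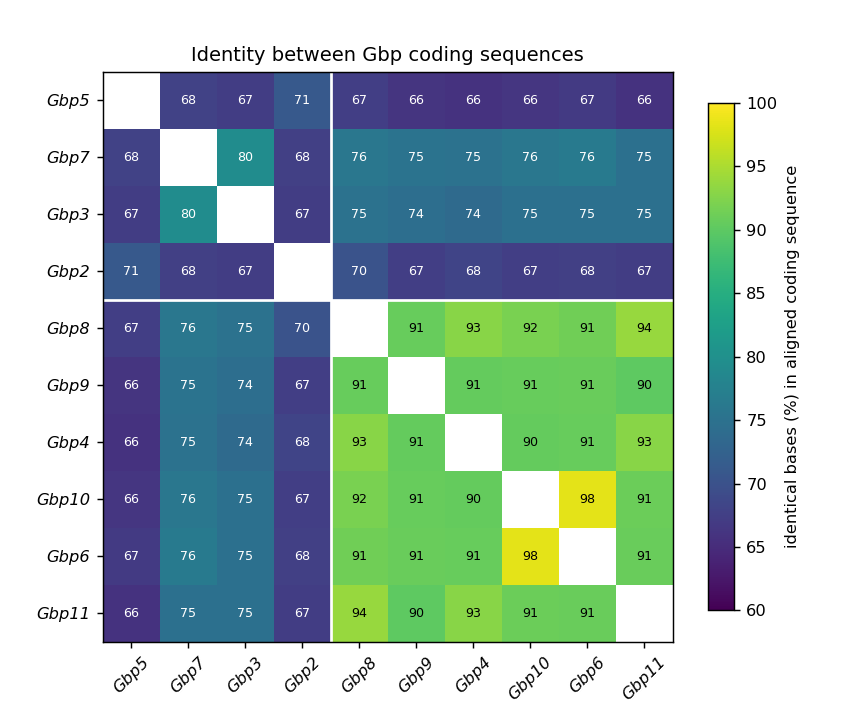
Percent identity of the aligned coding sequence for each pair of the 10 Gbp members, on both axes in order of position, with white lines between the 4 chromosome 3 and the 6 chromosome 5 members. The chromosome 5 block holds the values of 90.0% and above, with Gbp6 and Gbp10 at 98.4%.

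Promoters are shown for the chromosome 3 members because, of the 10 members, these alone had an entry. No chromosome 5 promoter could be examined. They run from 250 bases before to 50 after the transcription start in RefSeq (GRCm38.p6), and 4 of the 10 members had an entry. Capitals mark matches, on either strand, to the core of the interferon-stimulated response element (ISRE, GAAANNGAA, bound by IRF factors) and to the gamma-activated sequence (GAS, TTCNNNGAA, an element of interferon-gamma responsive promoters).
Gbp5 chr3:142496684-142496983 (+ strand): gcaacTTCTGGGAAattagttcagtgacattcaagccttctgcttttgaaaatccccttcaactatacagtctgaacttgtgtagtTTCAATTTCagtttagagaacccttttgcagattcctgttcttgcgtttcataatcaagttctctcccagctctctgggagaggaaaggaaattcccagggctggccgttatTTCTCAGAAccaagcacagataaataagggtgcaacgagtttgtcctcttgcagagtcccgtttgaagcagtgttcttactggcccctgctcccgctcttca
Gbp7 chr3:142530086-142530385 (+ strand): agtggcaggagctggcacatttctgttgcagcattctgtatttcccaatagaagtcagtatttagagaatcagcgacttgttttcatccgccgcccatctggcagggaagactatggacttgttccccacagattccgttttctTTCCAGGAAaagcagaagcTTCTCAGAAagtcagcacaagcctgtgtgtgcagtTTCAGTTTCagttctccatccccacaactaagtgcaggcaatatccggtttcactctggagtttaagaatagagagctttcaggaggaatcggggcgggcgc
Gbp3 chr3:142559794-142560093 (+ strand): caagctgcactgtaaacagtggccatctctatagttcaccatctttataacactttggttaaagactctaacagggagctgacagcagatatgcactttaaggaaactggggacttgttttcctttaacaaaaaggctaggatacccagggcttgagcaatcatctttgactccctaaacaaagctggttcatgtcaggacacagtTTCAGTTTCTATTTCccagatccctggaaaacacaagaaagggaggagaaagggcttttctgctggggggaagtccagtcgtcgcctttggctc
Gbp2 chr3:142620413-142620712 (+ strand): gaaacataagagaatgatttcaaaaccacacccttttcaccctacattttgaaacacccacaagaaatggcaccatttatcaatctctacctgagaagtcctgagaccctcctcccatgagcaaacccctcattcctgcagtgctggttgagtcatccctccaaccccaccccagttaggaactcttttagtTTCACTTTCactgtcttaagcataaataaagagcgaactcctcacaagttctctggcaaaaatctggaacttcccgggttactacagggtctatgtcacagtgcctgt
Each of the 4 promoters held the ISRE core, against 8.56% of the 32851 promoters of the same length in the table. In Gbp2 the match lay 58 to 50 bases before the start, in Gbp7 52 to 44 bases before it and in Gbp5 164 to 156 bases before it. In Gbp3 a pair of overlapping matches covered the bases from 44 to 30 before the start, and a second annotated start of Gbp3 had no match in its window. The GAS letters were found in Gbp5 and Gbp7, with 2 matches each, against 8.30% of all promoters. The PU.1 letters GAGGAAGT, present in 3.20% of all promoters, were in none of the 4. These are matches of letters and do not show binding.

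**Figure D2:**
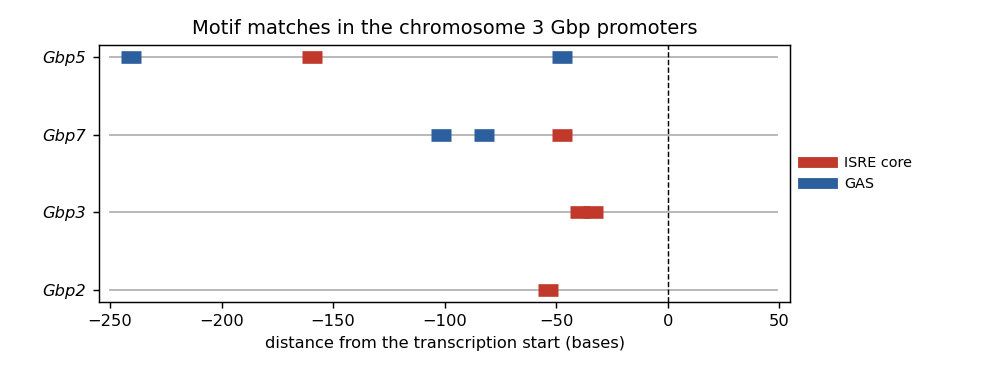
Matches to the ISRE core (red) and GAS (blue) in the promoters of the 4 chromosome 3 members, plotted as distance in bases from the transcription start (dashed line). All 4 promoters hold an ISRE core, which lies within 60 bases of the start in Gbp7, Gbp3 and Gbp2, and only Gbp5 and Gbp7 hold GAS matches.

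The 6 libraries held 36143518 to 47417448 counts. Msr1, the deleted gene, had counts of 2118, 1825 and 2000 in MSR1 KO against 7543, 9163 and 9219 in MSR1 WT (log2 fold change -2.02, SE 0.14, adjusted p = 0.0012, edgeR quasi-likelihood test), so every library went with its label although counts remained in MSR1 KO. Macrophage markers summed to 22534 to 23688 CPM (counts scaled to library size with edgeR's TMM factors) in MSR1 KO and 22845 to 25416 CPM in MSR1 WT, with 1 of 8 higher. The other marker lists were far lower, with stromal markers at 1123 to 1469 CPM in MSR1 KO and 1463 to 1877 CPM in MSR1 WT (3 of 8 lower). In bulk RNA, fewer cells of a type and less RNA per cell cannot be told apart.

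Of the 10 members, 9 had enough counts to be tested, and Gbp11 did not. For all 9, each MSR1 KO library was above each MSR1 WT library, where 12.1% of the 16402 tested genes showed this order. All 9 had an adjusted p under 0.05 for a higher level, as did 2.25% of tested genes, and were DEGs (fold change above 1.5 and P under 0.05) with a higher level, as were 3.59%. The share of tested genes with a lower level at an adjusted p under 0.05 was 2.66%, and no member was among them by edgeR, at an unadjusted p under 0.05 or by DESeq2. Because the same contrast chose the family, nothing is read from these counts. The adjusted calls rested on the libraries present, since 0 of the 9 members were called once MSR1 KO replicate 1 was left out, and 0 once MSR1 WT replicate 1 was. Omitting MSR1 WT replicate 2 left 1 call, and omitting MSR1 KO replicate 2 left 4.

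**Figure D3:**
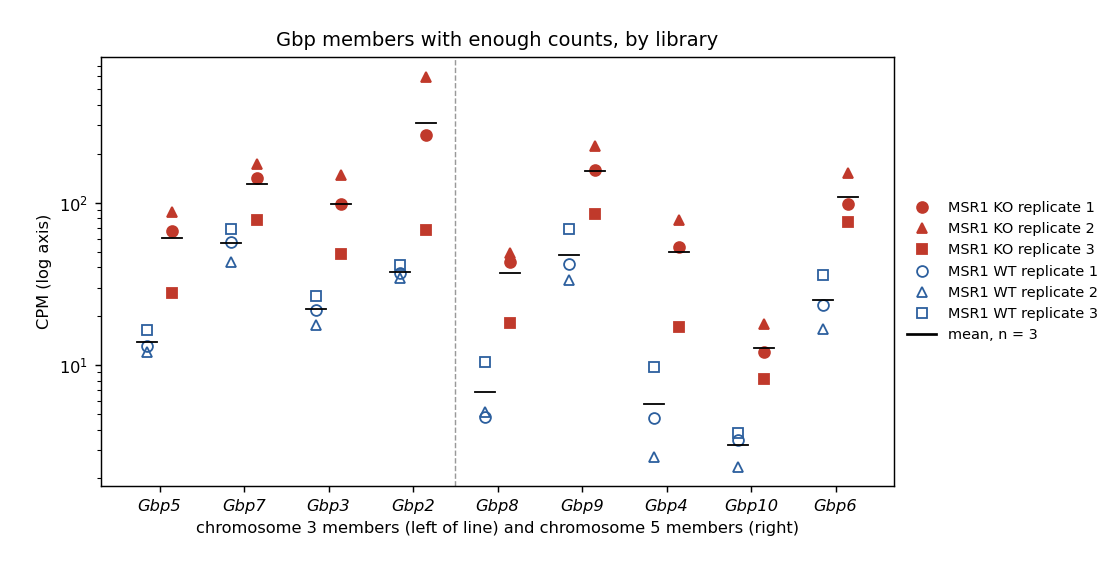
CPM on a log axis for the 9 tested Gbp members in the 3 MSR1 KO libraries (filled red) and the 3 MSR1 WT libraries (open blue), with marker shapes for replicate numbers and black bars for group means. Every MSR1 KO point lies above every MSR1 WT point of the same gene, MSR1 KO replicate 2 is highest and MSR1 KO replicate 3 lowest for all 9, and Gbp2 has the widest spread.

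On chromosome 3, Gbp2 (chr3:142620602-142638008), which acts in the control of Toxoplasma and in the lysis of intracellular bacteria, had counts of 9334, 23814 and 3141 in MSR1 KO and 1525, 1628 and 1710 in MSR1 WT. The MSR1 KO libraries spread 8.85-fold from lowest to highest, the MSR1 WT libraries 1.21-fold, and the groups did not overlap. The mean was 309 ± 269 CPM in MSR1 KO and 37.6 ± 3.58 CPM in MSR1 WT (SD, n = 3), a log2 fold change of 3.04 (SE 0.65). Against the MSR1 WT mean, the CPM of Gbp2 was 6.92-fold, 15.9-fold and 1.80-fold in MSR1 KO replicates 1, 2 and 3, so its size depended on the library. Without MSR1 KO replicate 2 its log2 fold change was 2.12, and without MSR1 KO replicate 3 it was 3.52.

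Gbp5 (chr3:142493978-142522344), which promotes inflammasome assembly, had counts of 2412, 3479 and 1290 in MSR1 KO and 535, 567 and 681 in MSR1 WT. All MSR1 KO libraries were higher, replicate 3 the least so. Its level was 60.8 ± 30.3 CPM against 13.8 ± 2.38 CPM (SD, n = 3), a log2 fold change of 2.14 (SE 0.37).

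Gbp3 (chr3:142560026-142573209), which is recruited to pathogen vacuoles, had counts of 3505, 5890 and 2236 in MSR1 KO and 894, 833 and 1100 in MSR1 WT. The groups did not overlap, and MSR1 KO replicate 3 again lay nearest to MSR1 WT. Its level was 97.9 ± 49.9 CPM against 22.0 ± 4.54 CPM (SD, n = 3), a log2 fold change of 2.16 (SE 0.36).

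Gbp7 (chr3:142530342-142550149), which helps assemble the NADPH oxidase on pathogen vacuoles, had counts of 5090, 6909 and 3624 in MSR1 KO and 2344, 2048 and 2863 in MSR1 WT. It had the smallest gap of the 9 tested members, with the lowest MSR1 KO library 1.13-fold above the highest MSR1 WT library in CPM. Its level was 131 ± 48.7 CPM against 56.4 ± 13.1 CPM (SD, n = 3), a log2 fold change of 1.22 (SE 0.28).

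On chromosome 5, Gbp4 (chr5:105115767-105139586), which is known to restrain IRF7 in the response to viruses, had counts of 1920, 3136 and 795 in MSR1 KO and 195, 128 and 402 in MSR1 WT. Here both groups spread widely, 4.61-fold in MSR1 KO and 3.61-fold in MSR1 WT, without overlap. Its level was 49.8 ± 31.0 CPM against 5.72 ± 3.62 CPM (SD, n = 3), a log2 fold change of 3.13 (SE 0.61). That value and the 3.04 of Gbp2 were within their SE of each other, and their order turned when MSR1 KO replicate 1 or MSR1 WT replicate 1 or 2 was left out. Without MSR1 WT replicate 3 the log2 fold change of Gbp4 was 3.75.

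Gbp8 (chr5:105014150-105139540) had counts of 1547, 1945 and 844 in MSR1 KO and 198, 242 and 434 in MSR1 WT. The groups did not overlap, with MSR1 KO replicate 3 and MSR1 WT replicate 3 closest to each other. Its level was 36.7 ± 16.3 CPM against 6.80 ± 3.21 CPM (SD, n = 3), a log2 fold change of 2.43 (SE 0.42).

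Gbp9 (chr5:105077630-105139539) had counts of 5718, 8938 and 3954 in MSR1 KO and 1722, 1585 and 2837 in MSR1 WT. It was the member with the most counts on chromosome 5, and its groups did not overlap. Its level was 156 ± 69.8 CPM against 47.9 ± 18.4 CPM (SD, n = 3), a log2 fold change of 1.70 (SE 0.37). With the counts of Gbp4, Gbp8 and Gbp9 summed, which was chosen after seeing the data because they share the first exon, the log2 fold change was 2.01 (SE 0.40).

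Gbp6 (chr5:105270702-105293698), which restricts intracellular bacteria, had counts of 3502, 6072 and 3554 in MSR1 KO and 963, 786 and 1472 in MSR1 WT. It was the 1 tested member whose spread of log2 CPM was no wider in MSR1 KO (SD 0.51) than in MSR1 WT (SD 0.55). Its level was 109 ± 39.3 CPM against 25.2 ± 9.66 CPM (SD, n = 3), a log2 fold change of 2.11 (SE 0.32).

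Gbp10 (chr5:105215699-105239533), its close copy, had counts of 430, 712 and 383 in MSR1 KO and 143, 112 and 158 in MSR1 WT. All MSR1 KO libraries were above all MSR1 WT libraries. Its level was 12.7 ± 4.86 CPM against 3.22 ± 0.764 CPM (SD, n = 3), a log2 fold change of 1.98 (SE 0.31). Summed with Gbp6 and Gm43302, again a choice made after seeing the data, the counts were 5530, 9468 and 5175 against 1516, 1583 and 2373, a log2 fold change of 1.98 (SE 0.30).

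Gbp11 (chr5:105323042-105346472), annotated as a polymorphic pseudogene, had counts of 83, 130 and 11 in MSR1 KO and 0, 0 and 8 in MSR1 WT. It was detected in every MSR1 KO library, but MSR1 KO replicate 3 and MSR1 WT replicate 3 differed by 3 counts only. The sums were 224 counts against 8, and no fold change is given because the gene did not pass the filter on low counts and MSR1 WT had libraries at 0, each of which allows up to 3 counts.

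The clusters were set side by side to see whether they moved alike. The median log2 fold change was 2.15 over the 4 chromosome 3 members, 2.11 over the 5 tested chromosome 5 members and 2.14 over all 9, against -0.00 over all tested genes. The ranges of the single members, 1.22 to 3.04 on chromosome 3 and 1.70 to 3.13 on chromosome 5, covered each other for the most part. The difference of the medians was 0.03, smaller than the SE of every member. It was -0.08 without MSR1 KO replicate 1 and -0.03 without MSR1 KO replicate 2. In the other such fits it was also negative, down to -0.37, but there Gbp11 counted among the chromosome 5 members. Gbp6, the middle of the 5 others, stood at 2.32 against a chromosome 3 median of 2.49 without MSR1 KO replicate 3. Without MSR1 WT replicate 3 it stood at 2.45 against 2.30. The sign of the difference therefore depended on the libraries and on Gbp11.

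Summed over members, chromosome 3 gave 566, 1007 and 221 CPM in MSR1 KO and 129, 107 and 154 CPM in MSR1 WT. Chromosome 5 gave 368, 526 and 205 CPM in MSR1 KO and 78.1, 60.1 and 129 CPM in MSR1 WT. Both sums were highest in MSR1 KO replicate 2 and, among MSR1 KO, lowest in replicate 3, and neither overlapped between genotypes. The mean ratio of MSR1 KO to MSR1 WT was 4.61 for chromosome 3 and 4.12 for chromosome 5.

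The balance between the clusters varied as much within a genotype as between them. Chromosome 3 over chromosome 5 was 1.54, 1.92 and 1.08 in MSR1 KO and 1.64, 1.78 and 1.20 in MSR1 WT, and the groups overlapped. Gbp2 made up 45.9%, 59.4% and 30.5% of the chromosome 3 sum in MSR1 KO and 28.8%, 32.1% and 26.9% in MSR1 WT. With Gbp2 left out, the ratio of chromosome 3 to chromosome 5 was 0.834, 0.778 and 0.749 in MSR1 KO and 1.17, 1.21 and 0.874 in MSR1 WT, so every MSR1 KO library was then below every MSR1 WT library. Without Gbp2 the mean chromosome 3 sum was 3.14-fold higher in MSR1 KO. These ratios use the contrast that chose the family and were not tested.

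**Figure D4:**
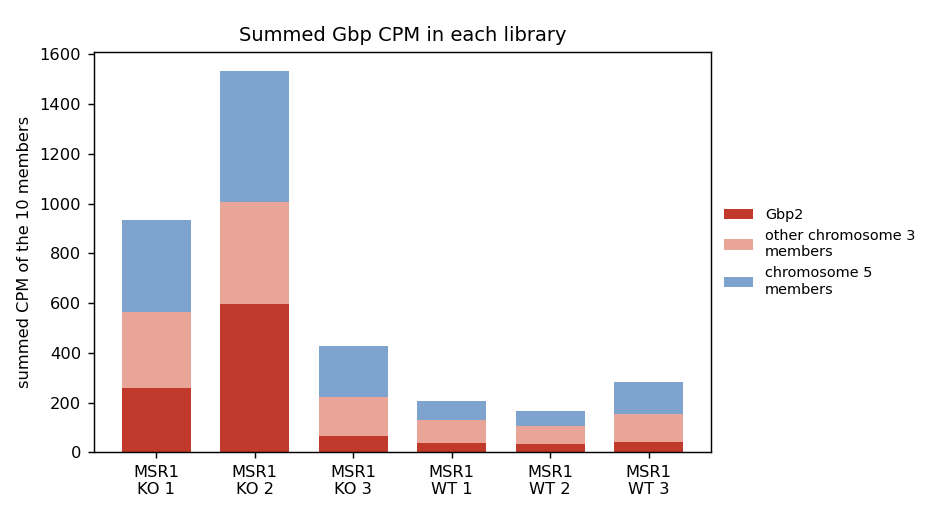
Summed CPM of the 10 Gbp members in each library, split into Gbp2 (red), the other 3 chromosome 3 members (pink) and the 6 chromosome 5 members (blue). The bars reach 427 to 1533 CPM in MSR1 KO and 167 to 282 CPM in MSR1 WT, and the Gbp2 share is largest in MSR1 KO replicate 2.

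The spread among MSR1 KO libraries was wide for the family. The median SD of log2 CPM over the 9 tested members was 0.78 in MSR1 KO and 0.36 in MSR1 WT, against 0.18 and 0.16 over all tested genes. The SD was larger in MSR1 KO than in MSR1 WT for 8 of 9 members, and for 54.4% of all tested genes. It was 0.84 against 0.27 on chromosome 3 and 0.71 against 0.55 on chromosome 5. The MSR1 KO value fell to 0.40 without MSR1 KO replicate 3, and the MSR1 WT value was 0.23 without MSR1 WT replicate 3 and 0.24 without MSR1 WT replicate 2.

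The members shared 1 order of libraries. In CPM, MSR1 KO replicate 2 was highest and MSR1 KO replicate 3 lowest for 9 of 9 members, an order seen in 18.0% of all tested genes. In MSR1 WT, replicate 3 was highest for 9 of 9 members (35.1% of tested genes) and replicate 2 lowest for 8 of 9 (33.9%). The family sum was 4.27, 7.01 and 1.95 times the MSR1 WT mean in MSR1 KO replicates 1, 2 and 3. The median member of chromosome 3 stood 0.93 above its MSR1 WT mean in MSR1 KO replicate 3 on the log2 scale, and that of chromosome 5 stood 1.51 above, whereas in replicate 2 they stood at 2.72 and 2.67. The members share libraries and, in part, reads, so a common order is not 9 separate observations.

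Markers of other cell types also moved with the genotype. Among the stromal markers, Pdgfra was at 6.29 to 8.39 CPM in MSR1 KO and 13.7 to 18.2 CPM in MSR1 WT, Pdgfrb at 18.4 to 26.2 against 33.5 to 42.4 CPM, and Cxcl12 at 62.5 to 101 against 126 to 205 CPM. These 3 were lower in every MSR1 KO library than in any MSR1 WT library, as were Col1a2 and Col3a1 of the same list. Col1a1 and Lepr overlapped between genotypes. Thy1 was higher in every MSR1 KO library, at 6.0 to 7.06 against 1.45 to 4.33 CPM. Among genes of natural killer (NK) cells, Gzmb and Klrb1c were higher in every MSR1 KO library. Nkg7 (4.75 to 7.44 against 0.822 to 4.89 CPM) and Ncr1 (4.79 to 6.11 against 1.56 to 5.62 CPM) overlapped between genotypes. Gzmb, a granzyme, had counts of 892, 1036 and 1578 in MSR1 KO and 284, 214 and 473 in MSR1 WT, and Klrb1c, an NK receptor, had 319, 298 and 410 against 105, 115 and 192. Of the 10 T and NK cell markers, 6 were tested and 2 were higher, and their sum was 136 to 194 CPM in MSR1 KO and 98.1 to 163 CPM in MSR1 WT, most of it from Cd4. Cd3e, which defines T cells, had at most 9 counts in any library. Other T cell genes reached more, with Cd3d at 19 in MSR1 KO replicate 3. In MSR1 WT replicate 3, Cd3g had 29 counts and Cd8a had 21. In CPM, Gzmb was 24.8, 26.0 and 34.0 and Klrb1c was 8.88, 7.49 and 8.82 in MSR1 KO replicates 1, 2 and 3. Ifng, the gene of interferon-gamma, had 4 counts in MSR1 WT replicate 1 and 0 in the other 5 libraries, each of which allows up to 3 counts. The part of stromal or NK cells in the Gbp levels was not tested.

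Levels of different members can be compared only per length, here as mean CPM per kilobase (kb) of annotated exon. In MSR1 KO the order was Gbp2 (123), Gbp9 (30.2), Gbp3 (30.0), Gbp7 (23.3), Gbp6 (18.3), Gbp8 (10.7), Gbp5 (9.16), Gbp4 (6.64), Gbp10 (3.28) and Gbp11 (0.720). Neighbours in this order had overlapping ranges over the 3 libraries, except Gbp10 and Gbp11, but ranges do not compare members within a library. In MSR1 KO replicates 2 and 3, Gbp2 was at 238 and 26.9 against 43.4 and 16.4 for Gbp9. The other neighbours were not compared within libraries. In MSR1 WT it was Gbp2 (14.9), Gbp7 (10.1), Gbp9 (9.27), Gbp3 (6.72), Gbp6 (4.23), Gbp5 (2.08), Gbp8 (1.98), Gbp10 (0.831), Gbp4 (0.763) and Gbp11 (0.0240). There Gbp2 stood clear of Gbp7, Gbp6 of Gbp5, Gbp8 of Gbp10 and Gbp4 of Gbp11, and the other neighbours overlapped. Per kb of the chosen coding transcript, a choice made after seeing the data, Gbp2 stayed first in MSR1 KO (123, ahead of Gbp9 at 57.9) but in MSR1 WT came after Gbp7 (22.6) and Gbp9 (17.8) at 14.9.

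The genes that lie beside the clusters were read in the same fit. Within 500 kb of the chromosome 3 cluster, 7 other genes were tested and 0 were higher by edgeR at an adjusted p under 0.05, at an unadjusted p under 0.05 or by DESeq2. Pdlim5, which encodes a cytoskeletal adaptor, was lower at a log2 fold change of -0.48 (SE 0.08, adjusted p = 0.020), a call that was lost when MSR1 KO replicate 1, MSR1 KO replicate 3 or MSR1 WT replicate 1 was left out. Within 500 kb of the chromosome 5 cluster, 2 of 11 tested genes were higher and 0 lower by edgeR at an unadjusted p under 0.05. DESeq2 called 1 higher and 0 lower. At an adjusted p under 0.05, 1 was higher by edgeR, and it was Gm43302, which overlaps Gbp10 and Gbp6. Gm43302 had counts of 1598, 2684 and 1238 in MSR1 KO and 410, 685 and 743 in MSR1 WT (log2 fold change 1.71, SE 0.33, adjusted p = 0.030), and its call was lost when replicate 1 or 2 of either genotype was left out.

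**Figure D5:**
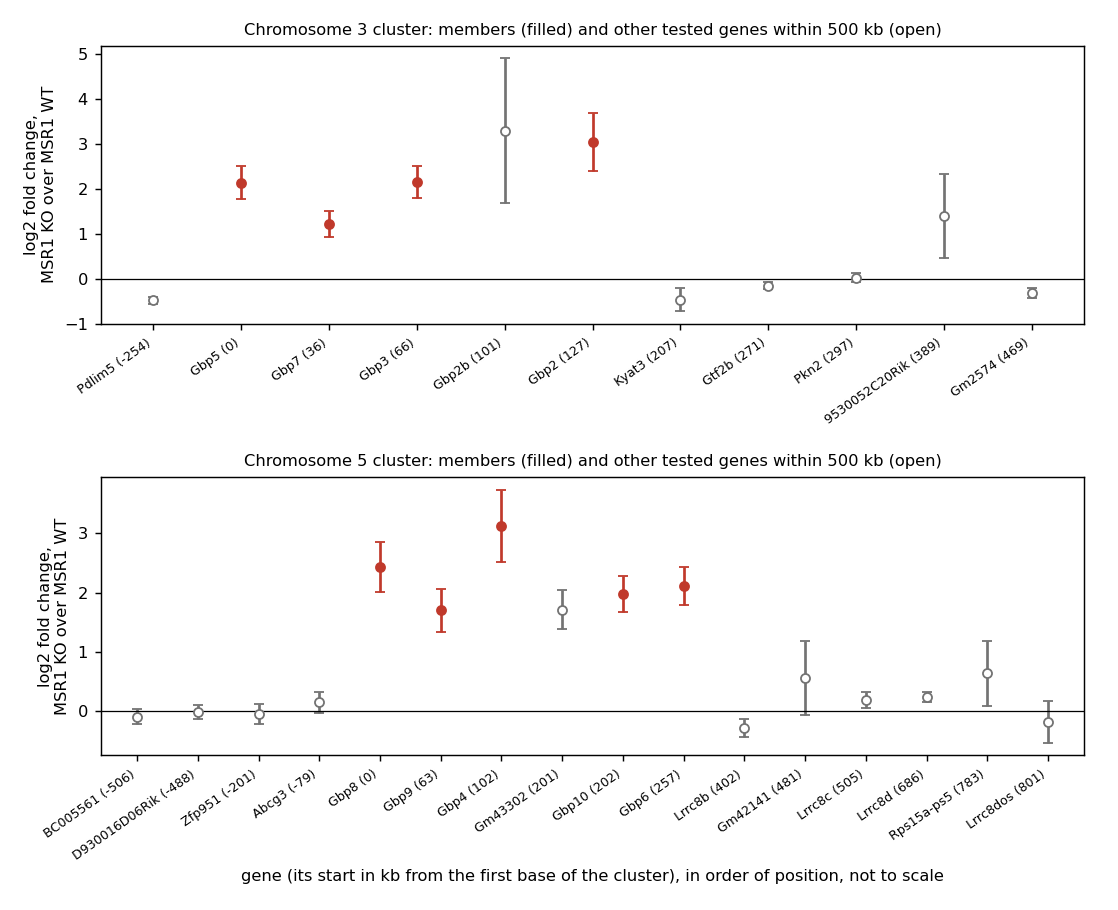
Log2 fold change of MSR1 KO over MSR1 WT with its SE for the tested Gbp members (filled red) and the other tested genes within 500 kb (open grey) of the chromosome 3 cluster (top) and the chromosome 5 cluster (bottom), in order of position. The members lie between 1.22 and 3.13, Gm43302 lies among them at 1.71, Gbp2b has a wide error at 3.30, and Pdlim5 lies at -0.48.

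Gbp2b, the family's gene that lies between Gbp3 and Gbp2 and was not among the 10, had counts of 36, 102 and 0 in MSR1 KO and 0, 16 and 0 in MSR1 WT. The groups overlapped, and the fitted log2 fold change of 3.30 (SE 1.61) had an adjusted p of 0.32 in the edgeR test. It was lowest in MSR1 KO replicate 3, as the members were. Gbp2-ps, a pseudogene, had 0 counts in every library.

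Genes of interferon signalling, which drives the Gbp genes, were read from a fixed list of 18. This list and those below were chosen with earlier results of these data known. Beside their counts, 2.25% of all tested genes were higher and 2.66% lower by edgeR at an adjusted p under 0.05. No such share was taken for the unadjusted p. Of 16 tested, 5 rose and 0 fell at an adjusted p under 0.05 by edgeR, with 9 higher and 1 lower at an unadjusted p under 0.05 and 9 higher and 0 lower by DESeq2. Stat2, a transcription factor of the type I response, rose by 1.27 (SE 0.20, adjusted p = 0.019, edgeR), Irf2 by 0.50 (adjusted p = 0.032) and Irf9, which binds DNA together with Stat2, by 0.48 (adjusted p = 0.035), all on the log2 scale. Socs1, a feedback inhibitor of JAK kinases, rose by 1.36 (SE 0.30, adjusted p = 0.045). Of the receptor genes, Ifngr1 had a log2 fold change of 0.17 (SE 0.09) and Ifnar1 one of -0.09 (SE 0.06). Ifngr2 was at 0.08 (SE 0.07) and Ifnar2 at 0.24 (SE 0.06, adjusted p = 0.072, edgeR), and none of them was called. Irf1, an interferon-induced transcription factor, stood at 1.02 (SE 0.27) and was not called. The list had 0 calls when MSR1 KO replicate 1 or either of MSR1 WT replicates 1 and 2 was left out, and 2 when MSR1 KO replicate 2 was. Ifnb1, the gene of interferon-beta, was too low to be tested, with counts of 8, 6 and 0 against 0, 0 and 4.

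Immunity-related GTPases (IRGs), the other large family of interferon-induced GTPases that act on pathogen vacuoles with the Gbp proteins, rose for the most part. Of 10 tested, 8 were higher and 0 lower by edgeR at an adjusted p under 0.05, and the median log2 fold change was 1.40. At an unadjusted p under 0.05, 9 were higher and 1 lower, and DESeq2 called 9 higher and 0 lower. Iigp1, an effector of the family, had counts of 8290, 12206 and 4448 in MSR1 KO and 1553, 1170 and 2471 in MSR1 WT (log2 fold change 2.37, SE 0.45, adjusted p = 0.027, edgeR). Tgtp1 and Tgtp2, near-identical copies whose reads may be shared, rose by 2.00 and 1.95, Igtp, a regulatory member, by 1.5 and Gm4951 by 1.41 on the log2 scale. No IRG was called by edgeR when MSR1 KO replicate 1 or either of MSR1 WT replicates 1 and 2 was left out, and 1 was called when MSR1 KO replicate 2 was.

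Among genes that act with Gbp proteins, a few rose. Of 15 genes that recruit Gbp proteins or act beside them at vacuoles, Trim21 (0.64, SE 0.11, adjusted p = 0.023, edgeR) and Rnf31 (0.55, SE 0.11, adjusted p = 0.030), both ubiquitin ligases, rose on the log2 scale and 0 fell, while 2 were higher and 1 lower at an unadjusted p under 0.05 and by DESeq2. Of 10 inflammasome genes, 3 rose and 0 fell by edgeR, with 7 higher at an unadjusted p under 0.05 and 5 by DESeq2. They were Casp4, the sensor of cytosolic lipopolysaccharide (log2 fold change 0.76, SE 0.15, adjusted p = 0.032), Il18, a cytokine released by inflammasomes (0.71, adjusted p = 0.027), and Gsdmd, which forms the membrane pore (0.51, adjusted p = 0.032). Both lists had 0 calls when replicate 1 or 2 of either genotype was left out. With MSR1 KO replicate 3 left out, 1 recruitment gene and 2 inflammasome genes were called.

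The enzymes that attach the prenyl lipid and the related dynamin genes gave few calls. Of 8 prenylation genes, 0 were called by edgeR at an adjusted or an unadjusted p under 0.05 or by DESeq2. Of 14 genes of the dynamin superfamily outside the Gbp and IRG families, 0 were called by edgeR, 1 was lower at an unadjusted p under 0.05 and 1 was lower by DESeq2. Their median log2 fold changes were 0.01 and -0.07.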

How the data were processed

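Macrophage mRNA was sequenced in 3 libraries of each genotype. The deposited values used here are the authors' raw counts for each gene, not normalized. The authors also deposited, in that table, size-factor-scaled signal for each library and the log2 values and p-values of their own comparison, and these were not used. The paper names TopHat, whereas the submitters' processing notes name fastp 0.17.1, HISAT2 2.1.0, DESeq2 1.18.1 and R 3.4.3. The read counter, the strand option and the genome version are not given in the sources used here. Positions were matched to GENCODE M21 (GRCm38), where 52403 identifiers were found and 49909 had the same start and end. No per-sample value column was left without a mapping.

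Genes passing edgeR's filterByExpr (16402) were fitted with TMM factors and the quasi-likelihood test (edgeR 4.0.16, R 4.3.3), with Benjamini-Hochberg adjustment over all of them, and each SE is the fitted log2 change divided by the root of its F statistic. The levels are CPM with TMM-scaled library sizes, and log2 CPM used a prior count of 2. In data simulated from these libraries, 112 of 200 genes changed 2-fold were recovered among 16030 tested, with 12 other calls. Precision is limited by 3 libraries per genotype, and a count of 0 allows up to 3 counts, which covers counting error only. Members and lists were chosen with earlier results of these data known. The genes named were the 10 members, up to 5 called genes of each list by size of the log2 fold change, called flanking genes, Msr1, the 10 genes outside the family most correlated with the members' mean, and genes a result turns on. Irf1, Ifngr1, Ifnar1, Pdgfra, Pdgfrb, Cxcl12, Gzmb, Klrb1c, Cd3e and Cd4 were named after their values were seen. So were Ifngr2, Ifnar2, Col1a1, Col1a2, Col3a1, Lepr, Thy1, Nkg7, Ncr1, Cd3g, Cd3d and Cd8a. Alternatives were DESeq2 1.42.0, other scalings and filters, the replicate number as a block, a wider flank and each library left out. Coding sequences (longest complete coding transcript, GENCODE M21) were aligned with biopython 1.88. Planned protein features were not analysed here, since no protein sequences were at hand. The values of 1 listed gene are not reported here.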

Additional observations from a re-analysis of the deposited data

How the results depend on the processing

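The median log2 fold changes kept their direction under all alternatives run. Over the libraries left out in turn they ran from 1.78 to 2.49 for all members and 1.75 to 2.49 for chromosome 3. For chromosome 5 they ran from 1.79 to 2.67. The 2.67 came without MSR1 WT replicate 3 and with Gbp11 included, against 2.11 with all libraries. Higher DEGs numbered 9 to 10 among the members, and 6 of the 6 features left when sequence-sharing members were summed. Adjusted calls were less stable. Among the members they numbered 6 with that sum, 6 without a filter and 8 with either other scaling. Leaving out each library in turn gave 0 to 9 members, 18 to 407 higher and 53 to 372 lower genes, 0 to 4 in the interferon list, 0 to 9 IRGs, 0 to 2 recruitment, 0 to 3 inflammasome and 0 to 1 dynamin genes, and 0 to 1 flanking genes of either cluster. DESeq2 called 720 higher and 848 lower genes, 9 interferon, 5 inflammasome and 1 dynamin gene. Without a filter 237 higher and 288 lower genes were called, and with at least 10 counts in every library 5 inflammasome genes. A window of 1000 kb gave 3 calls beside the chromosome 5 cluster. The median SD of log2 CPM ran from 0.40 to 1.01 in MSR1 KO and from 0.23 to 0.48 in MSR1 WT. Where the calls moved, the cause was not tested.

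With the replicate number as a block, 0 members, 59 higher and 78 lower genes, and 0 genes of the interferon, IRG, recruitment, inflammasome and both flanking lists were called. Same-numbered libraries did not deviate together (correlations of -0.026, 0.019 and -0.005), so the numbers were not taken to pair the samples.

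Precision is limited by 3 libraries per genotype and by low counts for Gbp11 and Gbp2b. Summing the members that share exons or sequence was added after seeing the data and gave a median log2 fold change of 2.07, against 2.14 without it.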

Other observations

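The genes outside the family whose log2 CPM followed the mean of the members most closely over the 6 libraries, among 13602 tested genes with a mean of at least 1 CPM, were Parp11 (Pearson r 0.999), Rap2c, Cept1, Casp4, Tgtp2 and Arhgef37 (each 0.998), Tgtp1 and Tor1aip1 (each 0.997), and Iigp1 and Fgl2 (each 0.996). These values describe 6 libraries of 2 genotypes and so contain the difference between the genotypes. The size of change differed widely among them, from a log2 fold change of 0.29 for Rap2c to 2.37 for Iigp1. Fgl2, which encodes a fibrinogen-like protein of macrophages and T cells, had counts of 9129, 16942 and 6201 in MSR1 KO and 2147, 1877 and 3646 in MSR1 WT. Each Gbp member's own r with the mean of the other tested members ran from 0.956 for Gbp2 to 0.997 for Gbp3.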
